A study of Homo sapiens with 12 samples.

Results

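The mRNAs of 9 basement membrane genes were followed in polysomes of triple-negative breast cancer (TNBC) cells: COL4A1, COL4A2, LAMA4, LAMA5, LAMB1, LAMB3, LAMC1, NID1 and HSPG2. They were chosen as a list of symbols, with no threshold on a measured value but with earlier results of these data known, and all 9 of the 24559 gene symbols in the count table had a row and passed the filter on low counts, together with 16538 genes in all. The 12 libraries of polysome-bound RNA, 2 per group, were made to ask which mRNAs differ among ribosome-bound RNA when the level of TRMT112 is changed. TRMT112 is the cofactor that several RNA and protein methyltransferases need, among them enzymes that methylate the 18S ribosomal RNA.

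The groups came from 3 established lines. MDA-MB-231 cells carried a control construct (EV, the label EV CTRL) or a TRMT112 knockdown (KD), and so did SUM159 cells. BT549 cells carried the control construct (EV) or a TRMT112 overexpression construct (OE). According to the study's methods, the KD cells held a lentiviral GIPZ shRNA and were selected with puromycin, their control was a non-silencing GIPZ shRNA although the label reads EV, and the BT549 pair held a pReceiver-M02 plasmid with or without the TRMT112 reading frame and was selected with G418. The lines were grown in different media, SUM159 with insulin and hydrocortisone and BT549 in RPMI with more serum, so a difference between lines cannot be told apart from one between media. Neither the labels nor the methods say whether the 2 libraries of a group came from separate cultures, so the p-values measure the spread between these libraries, which may be technical.

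Basement membranes are thin sheets of extracellular matrix under epithelia and around vessels, muscle and fat. Their laminin network is built from trimers of an alpha, a beta and a gamma chain that bind cell-surface integrins and dystroglycan. Collagen IV forms the second network, and nidogens and the heparan sulfate proteoglycan perlecan tie the networks together. Carcinoma cells have to cross this sheet to invade, and the matrix also carries adhesion and growth factor signals to them.

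The promoters of 3 members are shown because the results turn on these genes: COL4A1, whose window also holds the start of COL4A2 on the other strand, and LAMA5 and HSPG2, which changed most in BT549. Each sequence is the RefSeq window from 250 bases before to 50 bases after the start site in GRCh38.p14, read 5′ to 3′ on the gene's own strand. Capitals mark a CCAAT or a GGGCGG in either orientation, so that ATTGG and CCGCCC are the same motifs on the other strand.
COL4A1, chr13:110307108-110307407, minus strand: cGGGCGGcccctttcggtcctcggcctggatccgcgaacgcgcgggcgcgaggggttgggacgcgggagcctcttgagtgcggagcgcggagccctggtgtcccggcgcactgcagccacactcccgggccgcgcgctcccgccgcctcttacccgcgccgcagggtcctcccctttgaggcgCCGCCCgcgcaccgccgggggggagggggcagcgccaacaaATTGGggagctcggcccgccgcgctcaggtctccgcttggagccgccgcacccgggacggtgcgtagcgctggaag
LAMA5, chr20:62367263-62367562, minus strand: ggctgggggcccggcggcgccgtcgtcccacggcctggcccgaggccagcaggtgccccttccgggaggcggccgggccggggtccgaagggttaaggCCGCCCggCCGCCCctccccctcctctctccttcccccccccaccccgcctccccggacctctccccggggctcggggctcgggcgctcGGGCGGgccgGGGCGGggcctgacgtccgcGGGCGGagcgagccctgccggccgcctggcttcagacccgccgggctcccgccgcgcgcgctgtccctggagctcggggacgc
HSPG2, chr1:21937261-21937560, minus strand: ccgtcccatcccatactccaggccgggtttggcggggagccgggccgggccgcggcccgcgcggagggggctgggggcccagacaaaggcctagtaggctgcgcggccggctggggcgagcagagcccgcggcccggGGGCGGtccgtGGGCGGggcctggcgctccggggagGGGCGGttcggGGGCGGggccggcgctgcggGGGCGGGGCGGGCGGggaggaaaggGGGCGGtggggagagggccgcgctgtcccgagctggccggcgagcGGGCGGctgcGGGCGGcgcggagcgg

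The COL4A1 gene runs from base 110148963 to 110307157 of chromosome 13 and COL4A2 from 110305812 to 110513209 in GENCODE 44, head to head. Their RefSeq start sites are 127 bases apart. The annotated genes overlap by 1346 bases on opposite strands, and the strand setting of the counting is not given in the sources used here, so reads in that stretch cannot be assigned with certainty. The same holds where LAMA5 overlaps ADRM1 and LAMA5-AS1, LAMC1 overlaps LAMC1-AS1, HSPG2 overlaps LDLRAD2 and COL4A2 overlaps COL4A2-AS1 and COL4A2-AS2 on the opposite strand. The other members lie at chr6:112107931-112254939 (LAMA4), chr20:62307955-62367312 (LAMA5), chr7:107923799-108003213 (LAMB1), chr1:209614870-209652425 (LAMB3), chr1:183023420-183145592 (LAMC1), chr1:235975830-236065109 (NID1) and chr1:21822244-21937310 (HSPG2) of GRCh38, and the counts are of their annotated transcripts. The COL4A1 window holds 1 CCAAT and 2 GGGCGG, the LAMA5 window 5 GGGCGG and the HSPG2 window 10, overlapping matches included. None of the 11 windows of the 9 genes holds TATAAA. Over all 35116 RefSeq windows of this length, 34.6% hold CCAAT, 45% GGGCGG and 11.5% TATAAA on either strand. A match describes letters and no measured binding.

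The deposited expected counts summed to between 22954226 and 27434677 per library. Values below are normalized counts, that is, gene counts scaled by TMM to a common library size, and comparisons are log2 fold changes from edgeR's quasi-likelihood test with Benjamini-Hochberg adjustment over the 16538 genes, called at an adjusted p under 0.05. The targeted gene followed its labels. In MDA-MB-231 TRMT112 was at 4147 and 3938 in the EV libraries and at 1764 and 1682 in the KD libraries, a log2 fold change of -1.23 (SE 0.04, adjusted p = 5.1e-16). In SUM159 it was at 6332 and 6566 in EV and 3909 and 3699 in KD (-0.76, SE 0.04, adjusted p = 1.76e-14), and in BT549 at 3076 and 3087 in EV and 4286 and 4320 in OE (0.48, SE 0.04, adjusted p = 1.48e-10).

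Markers of other cell types moved with some groups. The summed level of 6 fibroblast markers (PDGFRA, PDGFRB, DCN, LUM, COL3A1, POSTN) was 39.9 to 56.9 in BT549 EV, where DCN and LUM had at most 3 counts, and 18274 to 18532 in BT549 OE, where all 6 were above 3 counts. It went from 683–684 in SUM159 EV to 202–239.9 in KD and from 226–227 to 562–611 in MDA-MB-231, where 5 of the 6 had at most 3 counts. In BT549 OE most of the sum was COL3A1 (mean 13025) and POSTN (4849). PDGFRB was at 12.3 there, below its level in either group of MDA-MB-231 or SUM159. The summed level of the 7 epithelial markers with a row was 15449 to 18177 in MDA-MB-231, 9963 to 13425 in SUM159, 88.6 to 98.5 in BT549 EV and 41.9 to 43.2 in BT549 OE. In MDA-MB-231 and SUM159 nearly all of it was KRT8 and KRT18. In SUM159 KD the mean of KRT8 rose from 4927 to 8524.5, while KRT14 fell from 167 to 0 and KRT17 from 172 to 26.4. CDH1 was highest in BT549 EV, at 57.2, against 1.83 in MDA-MB-231 EV and 0 in SUM159 EV. The 5 mesenchymal markers (VIM, CDH2, ZEB1, FN1, SNAI2) summed to 53415 to 53670 in BT549 EV and 26501 to 27342 in BT549 OE. They summed to 32051 to 33222 in MDA-MB-231 and 54855 to 56874 in SUM159. PECAM1, CDH5 and TEK, the endothelial markers with a row, summed to at most 112 in any library. The leukocyte sum, nearly all CD68, went from 4151–4280 in BT549 EV to 167–169.8 in OE, and PTPRC and LYZ had at most 3 counts in MDA-MB-231. The BT549 pair also differed widely as a whole: 5183 genes passed the test with a log2 fold change of at least 1 in either direction, against 530 in MDA-MB-231 KD, 2592 in SUM159 KD and 6100 to 7514 between the EV groups of different lines. Whether both BT549 groups are cells of the same line was not tested. With differences of this size, an effect of TRMT112 on a gene in BT549 OE cannot be told apart from another difference between these cell populations, and each BT549 fold below is one between the libraries as labelled. The part of these differences in the results below was not tested. In these bulk libraries fewer cells of a type and less RNA per cell cannot be told apart, and without libraries of total RNA neither can less mRNA and fewer ribosomes on it.

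Basement membrane mRNAs moved differently in the 3 lines. With TRMT112 knockdown in MDA-MB-231, LAMA4, LAMC1 and LAMB3 rose and LAMB1 fell. In SUM159 KD, NID1, LAMB3, COL4A2, COL4A1, LAMB1 and LAMC1 fell and HSPG2 rose. With overexpression in BT549, HSPG2, COL4A2 and COL4A1 rose, and LAMA5, LAMB3, LAMB1 and LAMC1 fell. LAMB1 was the member that passed the test in the same direction in all 3 lines, downward, whether TRMT112 was lowered or raised.

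These calls are read against a high background. In MDA-MB-231 KD, 4 of the 9 members were called, 3 higher and 1 lower, and so were 37.7% of all genes, 21.2% higher and 16.5% lower. In SUM159 KD it was 7 of 9, 1 higher and 6 lower, against 60.1% of all genes, 28.6% higher and 31.4% lower. In BT549 OE it was 7 of 9, 3 higher and 4 lower, against 70.6%, with 35.6% higher and 35% lower. The median log2 fold change of the members was 0.03, -0.47 and -0.15 in the 3 comparisons, beside 0.00, 0.00 and 0.02 over all genes. Their median absolute log2 fold change was 0.28, 0.47 and 1.03, beside 0.23, 0.46 and 0.70 over all genes. At a log2 fold change of at least 1, 1 member was called in MDA-MB-231 (LAMA4; 3.2% of all genes), 3 in SUM159 (COL4A2, LAMB3 and NID1; 15.7%) and 5 in BT549 (COL4A2, LAMA5, LAMB1, LAMB3 and HSPG2; 31.3%).

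**Figure D1:**
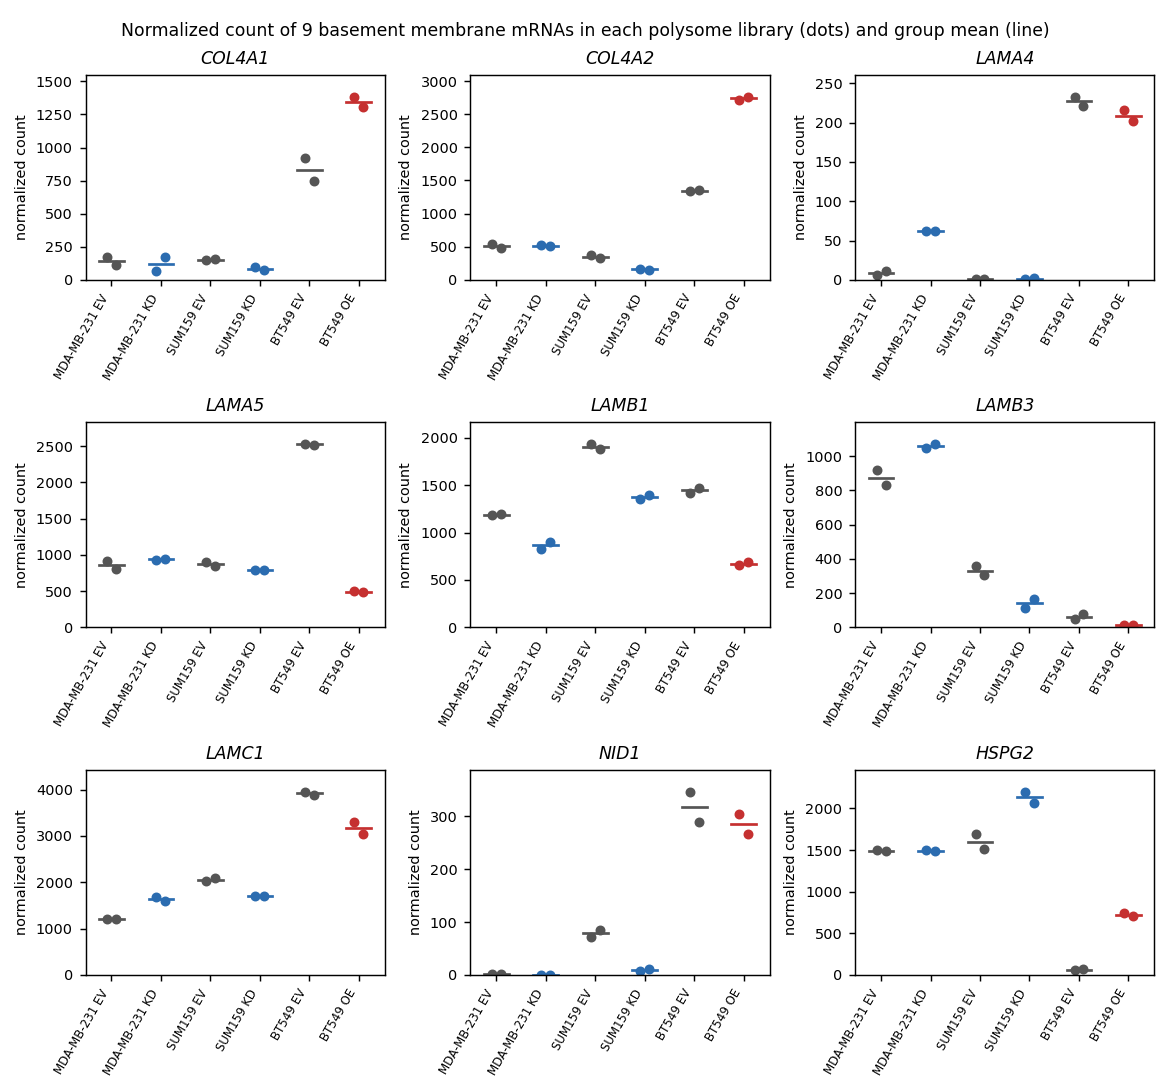
Normalized count (vertical axis, linear from 0, a separate scale for each gene) of the 9 mRNAs in each of the 12 polysome libraries, shown as dots for the 6 groups, with the mean of the 2 libraries as a line; grey marks EV, blue KD and red OE. BT549 holds the highest levels of COL4A1, COL4A2, LAMA4, LAMA5, LAMC1 and NID1 and the lowest of LAMB3, and HSPG2 is lowest in BT549 EV.

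**Figure D2:**
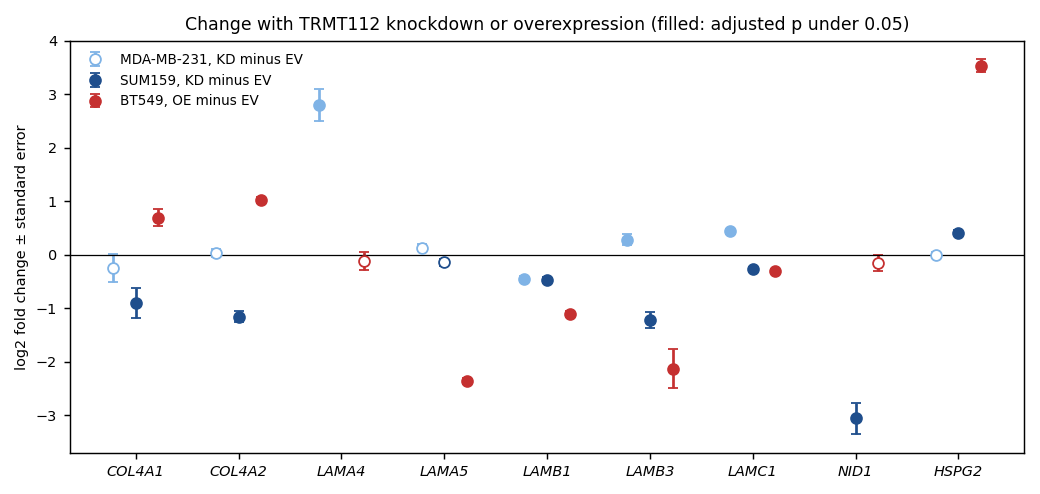
Log2 fold change with its standard error for each member in MDA-MB-231 KD, SUM159 KD and BT549 OE, each against the EV libraries of its own line; filled symbols passed the test and open symbols did not. NID1 in MDA-MB-231 and LAMA4 in SUM159 are left out because both groups were at or under 3 counts per library; the largest rise is HSPG2 in BT549 (3.54) and the largest fall NID1 in SUM159 (-3.06).

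Collagen IV of most basement membranes is a trimer of 2 chains from COL4A1 and 1 from COL4A2. COL4A2 mRNA was at 371 and 328 normalized counts in the SUM159 EV libraries and at 168 and 146 in KD, and at 1340 and 1353 in BT549 EV and 2715 and 2768 in BT549 OE. The groups did not overlap in either line. The log2 fold change was -1.16 (SE 0.10, adjusted p = 1.11e-09) in SUM159 KD and 1.03 (SE 0.06, adjusted p = 2.12e-13) in BT549 OE. In MDA-MB-231, COL4A2 was at 541 and 476 in EV and 520 and 514 in KD, a log2 fold change of 0.03 with a 95% interval of -0.16 to 0.22. The effect of the knockdown on COL4A2 was 1.18 higher on the log2 scale in MDA-MB-231 than in SUM159 (SE 0.13, adjusted p = 5.39e-08), one of 5 members for which this difference passed the test, 4 of them higher in MDA-MB-231, beside 50.9% of all genes, 27.7% higher and 23.2% lower.

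COL4A1 went the same way as COL4A2 in SUM159 and in BT549, with wider spread. It was at 146 and 159 in SUM159 EV and 93.8 and 70.9 in KD, and at 917 and 747 in BT549 EV and 1385 and 1303 in BT549 OE. The log2 fold change was -0.90 in SUM159 (SE 0.29, adjusted p = 0.00919) and 0.69 in BT549 (SE 0.15, adjusted p = 0.000369). Neither call held in DESeq2 (adjusted p = 0.109 and 0.159), and the SUM159 call was also lost without SUM159 EV replicate 2 (adjusted p = 0.0523) or KD replicate 2 (adjusted p = 0.107). In MDA-MB-231 the 2 KD libraries lay on either side of the EV libraries, at 65.6 and 175.3 against 175.0 and 111.4. The log2 fold change there was -0.25 (95% interval -0.90 to 0.40). It rested on single libraries, since it was -1.12 without KD replicate 2 (adjusted p = 0.00228) and 0.30 without KD replicate 1 (adjusted p = 0.335). For COL4A1 the knockdown effect was 0.65 higher in MDA-MB-231 than in SUM159 (SE 0.39, adjusted p = 0.183), and 1.20 without MDA-MB-231 KD replicate 1 (adjusted p = 0.00157).

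On summed counts per length, COL4A1 was the less abundant of the pair in every library. Summed normalized counts per kb of the MANE Select transcript, the reference isoform of each gene, gave a ratio of COL4A1 to COL4A2 of 0.32 and 0.23 in MDA-MB-231 EV, 0.39 and 0.48 in SUM159 EV, and 0.67 and 0.54 in BT549 EV. The ratio was 0.12 and 0.34 in MDA-MB-231 KD, 0.55 and 0.48 in SUM159 KD, and 0.50 and 0.46 in BT549 OE. Within each line the libraries of the groups overlapped in MDA-MB-231, met at 0.48 in SUM159 and did not overlap in BT549. The ratio moved with the length correction. With the single main transcript of each gene it was 0.43 in MDA-MB-231 EV and reached 1.45 in SUM159 KD, where the libraries stood at 2.04 and 0.86. The order of the BT549 groups turned with the main transcripts, at 0.77 and 0.78 in EV and 0.86 and 0.90 in OE. With every transcript divided by its own length the group means were between 0.09 and 0.27, and the BT549 groups overlapped, at 0.36 and 0.18 in EV and 0.25 in both OE libraries. COL4A2 had 50.5% of its counts on the MANE Select transcript and 73.8% on protein-coding transcripts, and COL4A1 79.4% and 96.6%. These are pooled shares, and the protein-coding share of COL4A2 differed between the BT549 groups. It fell from 84.2% and 91.5% with EV to 64.2% and 57.9% with OE. For SUM159 the shares overlapped, at 68.1% and 79.0% with EV against 47.5% and 69.9% with KD. The COL4A2 fold changes above count all transcripts, and a change on protein-coding transcripts alone was not tested.

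**Figure D3:**
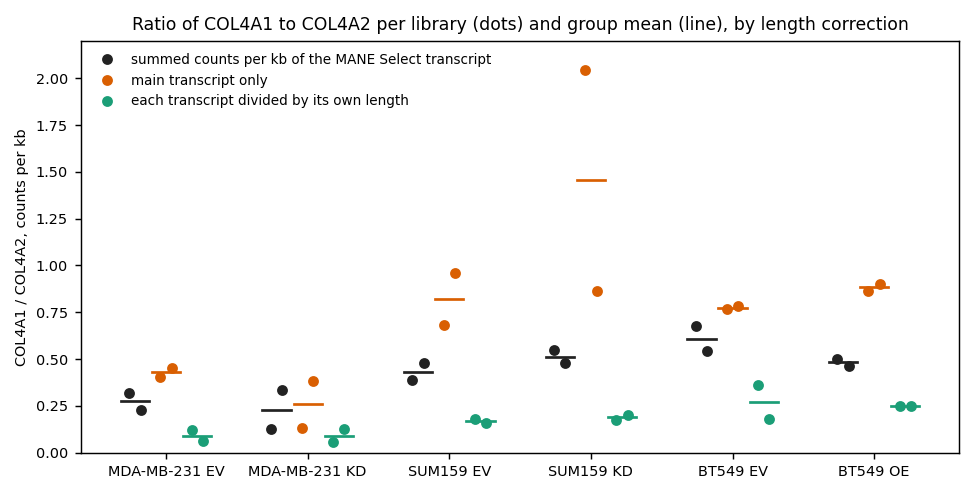
Ratio of COL4A1 to COL4A2 counts per kb (vertical axis, linear) in each library (dots) with the group mean (line), for 3 ways of correcting for transcript length. The ratio of summed counts (black) is under 0.7 in every library, whereas the ratio of the single main transcripts (orange) reaches 2.04 in SUM159 KD replicate 1.

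Among the laminin alpha chains, LAMA5, whose chain is widespread in epithelial and vascular basement membranes, had the largest fall of the 9 members in BT549 OE. It was at 2527 and 2518 in EV and 495 and 484 in OE, so the groups were far apart, with a log2 fold change of -2.36 (SE 0.06, adjusted p = 8.2e-20), or 5.15-fold lower. LAMA5 stood at 910 and 808 in MDA-MB-231 EV and 932 and 948 in KD (log2 fold change 0.13, adjusted p = 0.103). In SUM159 it stood at 901 and 847 in EV and 789 and 796 in KD (-0.14, adjusted p = 0.0592). Neither comparison passed the test, with 95% intervals of -0.02 to 0.28 and -0.30 to 0.01. Both lay close to the threshold: LAMA5 was called in MDA-MB-231 without EV replicate 1 (0.22, adjusted p = 0.0255) and in SUM159 without EV replicate 2 (-0.19, adjusted p = 0.0458) or without either MDA-MB-231 EV library (adjusted p = 0.0418 and 0.0414). The difference between these knockdown effects was 0.27 (SE 0.09, adjusted p = 0.0127). It was lost without MDA-MB-231 EV replicate 2 (0.20, adjusted p = 0.0904) or SUM159 EV replicate 1 (0.23, adjusted p = 0.0663).

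LAMA4, an alpha chain typical of vessel, muscle and fat basement membranes, was the member that rose most in MDA-MB-231 KD. Its normalized count was 6.6 and 11.0 in the EV libraries and 61.8 and 62.6 in the KD libraries, from raw counts of 7, 12, 66 and 65, with a log2 fold change of 2.80 (SE 0.30, adjusted p = 9.13e-08). The level in KD was still below that of BT549, where LAMA4 was at 233 and 221 in EV and 216 and 201 in OE. The BT549 groups did not overlap but differed by -0.12 (95% interval -0.53 to 0.29, adjusted p = 0.52). In SUM159 the raw count of LAMA4 was 1 in each EV library and 1 and 2 in KD, at the limit of detection, so no fold is given. Its counts were spread over 23 transcripts, 95.1% of them on protein-coding ones and 1.58% on the MANE Select transcript. LAMA4 overlaps LAMA4-AS1 on the opposite strand, and reads of the 2 genes cannot be told apart without strand.

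The make-up of the alpha chains, set on the scale of counts per kb, differed between the BT549 groups. All counts of a gene were divided by its MANE Select length, 10651 bases for LAMA3 and 7228 for LAMA4. That transcript held 1.58% of the LAMA4 counts, and its share of the LAMA2 and LAMA3 counts was not tested. The ranking of the chains therefore depends on these lengths. In BT549 EV, LAMA5 made up 51.3% and 50.3% of the 4 alpha chain mRNAs with a row (LAMA2, LAMA3, LAMA4, LAMA5) and LAMA3, the alpha chain of epithelial anchoring laminin, 39.9% and 40.9%. In BT549 OE the shares were 36.6% and 34.4% for LAMA5, 30.6% and 33.1% for LAMA2, the muscle and nerve alpha chain, 25.2% and 22.6% for LAMA4 and 7.64% and 9.92% for LAMA3. The summed alpha chain level went from 431 and 438 per kb to 118 and 123. LAMA3 fell by 4.05 (SE 0.11, adjusted p = 1.08e-19) and LAMA2 rose by 2.47 (SE 0.17, adjusted p = 8.27e-12) on the log2 scale. In MDA-MB-231, LAMA4 took 0.709% and 1.31% of the alpha chain level in EV and 6.69% and 6.26% in KD. In SUM159, LAMA5 took 65.3% and 65.7% in EV and 52.1% and 51.5% in KD, where LAMA2 (1.05, SE 0.18, adjusted p = 1.62e-05) and LAMA3 (0.57, SE 0.10, adjusted p = 3.34e-05) rose.

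LAMB1, a beta chain of many laminins, was lower in every treated group. It was at 1184 and 1194 in MDA-MB-231 EV and 828 and 906 in KD, at 1935 and 1879 in SUM159 EV and 1350 and 1399 in KD, and at 1423 and 1475 in BT549 EV and 659 and 686 in OE. No group overlapped the other of its line. The log2 fold changes were -0.46 (SE 0.06, adjusted p = 8.76e-07), -0.47 (SE 0.05, adjusted p = 2.86e-08) and -1.11 (SE 0.06, adjusted p = 6.45e-14). The effects of the knockdown in MDA-MB-231 and SUM159 differed by 0.02 (95% interval -0.17 to 0.20, adjusted p = 0.924). Only 47.8% of the LAMB1 counts lay on protein-coding transcripts and 40.3% on the MANE Select transcript. On that transcript alone the change in MDA-MB-231 was -0.20 and did not pass the test (adjusted p = 0.544). LAMB1 shares 7932 bases with DLD on the opposite strand.

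LAMB3, the beta chain of the anchoring laminin of epithelia, fell in SUM159 and BT549 and rose slightly in MDA-MB-231. It was at 359 and 305 in SUM159 EV against 112 and 168 in KD, and at 46.0 and 77.5 in BT549 EV against 16.6 and 11.3 in OE. The log2 fold changes were -1.23 (SE 0.15, adjusted p = 1.73e-07) and -2.13 (SE 0.37, adjusted p = 2.02e-05), and the groups did not overlap. On its main transcript alone, which held 56.3% of the LAMB3 counts, neither call was kept (adjusted p = 0.0588 and 0.056). In MDA-MB-231, LAMB3 was at 917 and 831 in EV and 1048 and 1071 in KD (0.28, SE 0.10, adjusted p = 0.0342). That call was lost without EV replicate 2 (0.21, adjusted p = 0.25), KD replicate 1 (0.30, adjusted p = 0.105) or KD replicate 2 (0.27, adjusted p = 0.15), in DESeq2 (adjusted p = 0.374) and with library size as the scaling (0.19, adjusted p = 0.155). The knockdown effects in MDA-MB-231 and SUM159 differed by 1.51 (SE 0.18, adjusted p = 2.13e-07).

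The beta chain mRNAs with a row were LAMB1, LAMB2 and LAMB3, and per kb of summed counts each line had its own make-up. The sums hold transcripts that do not code. Protein-coding transcripts held 49.6% and 54.3% of the LAMB1 counts in MDA-MB-231 EV, against 100% of those of LAMB3. For LAMB1 they held 47.6% and 46.6% in BT549 EV and 28.9% and 37.3% in OE. The make-up on coding transcripts alone was not tested. In MDA-MB-231 EV, LAMB1 took 38.9% and 41.1% and LAMB3 42.4% and 40.3%, and in KD LAMB3 took 52.4% and 51.7%. SUM159 EV was mostly LAMB1, at 67.6% and 67.9%, which was 57.0% in both KD libraries as LAMB2 went from 14.8% and 16.6% to 36.3% and 33.3%. LAMB2, the beta chain of neuromuscular and kidney basement membranes, rose by 0.93 in SUM159 KD (SE 0.07, adjusted p = 1.37e-10). In BT549, LAMB1 went from 66.9% and 66.7% to 47.1% and 50.6% and LAMB2 from 30.1% and 28.4% to 51.2% and 48.2%, while the LAMB2 level itself was 113 and 111 per kb in EV and 127 and 115 in OE.

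LAMC1, the gamma chain shared by most laminins, had the highest level per kb of the 9 members in BT549 EV (499 and 491). It was at 1198 and 1211 in MDA-MB-231 EV and 1671 and 1591 in KD, at 2026 and 2087 in SUM159 EV and 1712 and 1705 in KD, and at 3956 and 3892 in BT549 EV and 3293 and 3051 in OE. The 2 libraries of each group lay close together and apart from the other group. The log2 fold change was 0.44 in MDA-MB-231 (SE 0.05, adjusted p = 1.73e-07), -0.27 in SUM159 (SE 0.05, adjusted p = 2.19e-05) and -0.31 in BT549 (SE 0.04, adjusted p = 6.21e-07). The knockdown effects differed by 0.71 between the lines (SE 0.07, adjusted p = 4.87e-09).

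**Figure D4:**
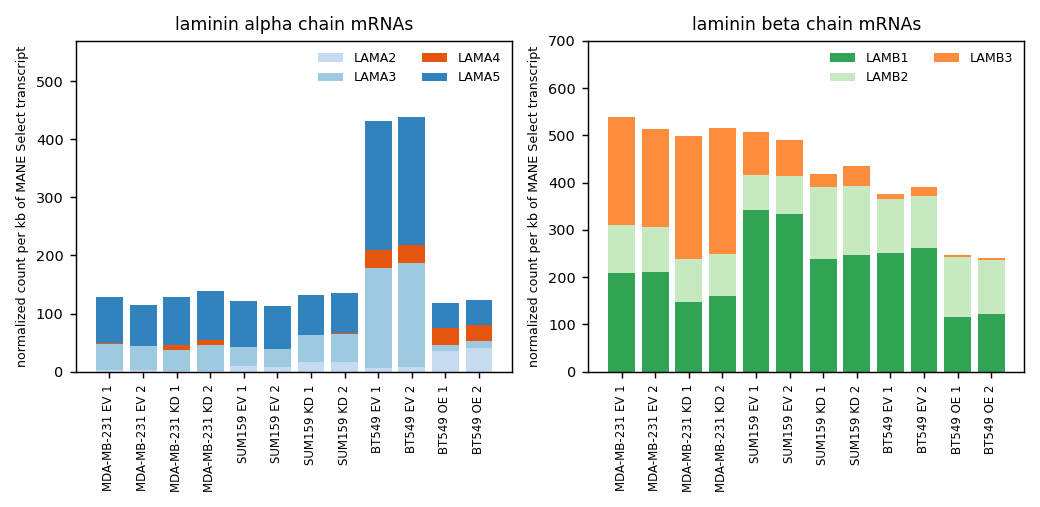
Stacked bars of the normalized count per kb of MANE Select transcript for the laminin alpha and beta chain mRNAs (2 panels, vertical axes from 0), with 1 bar for each of the 12 libraries. Counts of all transcripts of a gene are summed, coding or not. The alpha chain total of the BT549 EV libraries is 431 and 438 per kb and that of the OE libraries 118 and 123 and LAMB1 is the largest part of the beta bars in SUM159 and in BT549 EV.

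NID1, nidogen 1, a glycoprotein that links laminin to collagen IV, had the largest fall of the 9 members in SUM159 KD. It was at 72.7 and 84.4 in EV and 8.1 and 10.4 in KD, from raw counts of 72, 84, 8 and 12, with a log2 fold change of -3.06 (SE 0.29, adjusted p = 4.98e-09). In BT549 it was at 347 and 289 in EV and 305 and 267 in OE, groups that overlapped, with a log2 fold change of -0.15 (95% interval -0.53 to 0.22, adjusted p = 0.374). In MDA-MB-231 the raw count was 2 in each EV library and 0 in each KD library, so no fold is given, and NID1 was not measurable there at this depth. NID2, the second nidogen, rose from 49.6 to 301 in BT549 OE (2.60, SE 0.26, adjusted p = 5.19e-09). In SUM159, NID2 had 4 counts over the EV libraries and 27 over KD, a ratio of 6.24 with an exact 95% counting interval of 2.17 to 24.5.

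HSPG2 encodes perlecan, the large heparan sulfate proteoglycan that binds growth factors and both networks. In BT549 it had the largest rise of the members, from 58.0 and 66.4 in EV to 741 and 704 in OE, or 11.6-fold (log2 fold change 3.54, SE 0.12, adjusted p = 3.32e-18). Both OE libraries were still below every library of MDA-MB-231 and SUM159. HSPG2 was at 1687 and 1512 in SUM159 EV and at 2202 and 2064 in KD (0.41, SE 0.05, adjusted p = 4.84e-07). In MDA-MB-231 it was at 1499 and 1488 in EV and 1502 and 1487 in KD, a log2 fold change of 0.00 with a 95% interval of -0.14 to 0.14. The difference between the knockdown effects was -0.41 (SE 0.08, adjusted p = 9.42e-05). Over all groups HSPG2 was highest in SUM159 KD. Of the 6 fibroblast markers, PDGFRA, DCN, LUM, COL3A1 and POSTN were highest in BT549 OE. PDGFRB was not, at 12.3 there against 224 in MDA-MB-231 EV and 584.5 in KD. A link between these markers and HSPG2 was not tested.

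Among the EV groups, BT549 stood apart. The count table holds only transcripts with a count in BT549, so the sums of MDA-MB-231 and SUM159 may lack isoforms. The part of this in the differences from BT549 was not tested. All 9 members differed between BT549 and MDA-MB-231, 7 of them higher in BT549, beside 79.5% of all genes called (39.1% higher, 40.4% lower), and all 9 between BT549 and SUM159, 6 of them higher, beside 78.4% (37.7% higher, 40.7% lower). COL4A1 was 5.83-fold higher in BT549 than in MDA-MB-231 (log2 fold change 2.54, SE 0.20, adjusted p = 4.31e-11), LAMA5 2.94-fold (1.55, SE 0.06, adjusted p = 1.41e-17) and LAMC1 3.26-fold (1.70, SE 0.05, adjusted p = 3.29e-20). HSPG2 was 23.9-fold lower (adjusted p = 6.9e-22) and LAMB3 14.1-fold lower (adjusted p = 2.24e-16). NID1 had 578 counts over the BT549 EV libraries and 4 over those of MDA-MB-231, a ratio of 172 with an exact 95% counting interval of 66.7 to 632. For LAMA4 the counts were 413 in BT549 EV and 2 in SUM159 EV, a ratio of 226 (62.1 to 1870.0). Scaling by library size alone moved the log2 fold change of all genes by a median of -0.32 between BT549 and MDA-MB-231 and -0.21 between BT549 and SUM159. Under it the difference of LAMB1 between BT549 and MDA-MB-231, 0.29 under TMM (SE 0.05, adjusted p = 4.72e-05), became -0.03 and did not pass the test.

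MDA-MB-231 EV and SUM159 EV differed in 6 of the 9 members, 3 in each direction, beside 75.7% of all genes (36.4% higher, 39.2% lower). COL4A2 (0.54, SE 0.08, adjusted p = 3.9e-06) and LAMB3 (1.40, SE 0.12, adjusted p = 1.53e-10) were higher in MDA-MB-231, as was LAMA4, with 19 counts against 2. LAMB1 (-0.68, SE 0.05, adjusted p = 3.18e-11), LAMC1 (-0.77, SE 0.05, adjusted p = 5.97e-13) and NID1, with 4 counts against 156, were lower. COL4A1, LAMA5 and HSPG2 did not pass the test, with 95% intervals of -0.72 to 0.53, -0.18 to 0.13 and -0.24 to 0.04. HSPG2 was called without SUM159 EV replicate 2 (-0.18, adjusted p = 0.0176).

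Ranked by the mean in the 6 groups, BT549 OE and EV headed the order for COL4A1 and COL4A2, at means of 1344 and 832 for COL4A1 and 2741 and 1347 for COL4A2. Below them COL4A1 had no neighbouring pair past the test, from 153 in SUM159 EV to 82.3 in SUM159 KD. The ends of that range did differ (-0.90, adjusted p = 0.00919). LAMA5 was highest in BT549 EV (2523) and lowest in BT549 OE (490), and the 4 groups between them, from 940.1 in MDA-MB-231 KD to 793 in SUM159 KD, had no neighbouring pair past the test. This does not compare MDA-MB-231 KD with SUM159 KD. In LAMB3 every neighbouring pair differed, from 1060 in MDA-MB-231 KD to 14.0 in BT549 OE. LAMB1 was highest in SUM159 EV (1907), and BT549 EV (1449) and SUM159 KD (1375) did not differ beyond their spread (adjusted p = 0.201). LAMC1 did not differ between SUM159 KD and MDA-MB-231 KD beyond the spread (adjusted p = 0.197). HSPG2 was highest in SUM159 KD (2133), and SUM159 EV, MDA-MB-231 KD and MDA-MB-231 EV followed with no neighbouring pair past the test.

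Over the 12 libraries the log2 levels of COL4A1 and COL4A2 had a Pearson r of 0.92, those of LAMC1 and NID1 0.91, and those of COL4A2 and LAMA4 0.88. These are descriptions: the libraries fall into 6 groups of 2, and r follows the group levels. Of the 12589 genes ranked, COL4A2 was in place 272 of those most like COL4A1. The 2 genes most like each member were STT3A (0.97) and MAT2B (0.97) for COL4A1, CLPTM1 (0.99) and PLCL2 (0.99) for COL4A2, SNX13 and TTC9C for LAMA4, PARP10 and SAMD9L for LAMA5, MLLT6 and RAD51C for LAMB1, DBT and KANSL3 for LAMB3, DBNL and ABHD16A for LAMC1, NPIPA9, one of a family of near-identical copies, and TRIM35 for NID1, and OCIAD2 and APBA2 for HSPG2.

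Other basement membrane components, a list of 28 genes of which 22 were tested, changed in each line in both directions. In MDA-MB-231 KD, 3 rose and 4 fell, with a median log2 fold change of -0.21 beside 0.00 over all genes. These 7 genes were 31.8% of the list, beside 37.7% of all genes called. TINAGL1, a matrix glycoprotein related to cathepsins, rose from 1042 to 2071 (0.99, SE 0.06, adjusted p = 2.61e-11). NTN4, a netrin that binds the laminin gamma chain, rose by 0.53 and COL18A1, the precursor of endostatin, by 0.42, while COL4A5 (-0.95), FRAS1 (-1.22), LAMA2 (-0.94) and SMOC1 (-0.92) fell.

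In SUM159 KD, 8 of these genes rose and 6 fell, with a median of 0.32 beside 0.00, or 63.6% of the list beside 60.1% of all genes. COL17A1, a hemidesmosomal collagen, fell from 189 to 6.63 (-4.83, SE 0.35, adjusted p = 2.14e-11), COL7A1, the anchoring fibril collagen, from 699 to 235 (-1.58, SE 0.12, adjusted p = 5.96e-11), SMOC1 from 537 to 89.9 and TINAGL1 from 1295 to 593. NTN1 fell by 1.04 on the log2 scale. NTN4 rose from 811 to 1788 (1.14, SE 0.06, adjusted p = 2.53e-13), and COL18A1 by 0.15. COL4A4, FRAS1 and HMCN1 also passed the test on 3 or fewer counts per library in 1 group. HMCN1 had 7 counts over EV and 1 over KD, a ratio whose counting interval runs from 0.973 to 341. FRAS1 had 6 counts over KD and 0 over EV, which is 1.85-fold if the 0 stands for 3 counts. No interval was set on the 6 counts.

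In BT549 OE, 8 rose and 9 fell, with a median of -0.37 beside 0.02, or 77.3% of the list beside 70.6% of all genes. COL15A1, a collagen at the interface of basement membrane and stroma, fell from 1828 to 27.9 (-6.02, SE 0.18, adjusted p = 9.83e-19). AGRN, the proteoglycan agrin, fell by 0.59, and COL4A6 (-1.21), COL17A1 (-3.19), HMCN1 (-1.34) and NPNT (-3.33) fell too. FRAS1 had 96 counts in EV and 1 in OE, and FREM2 had 7 and 0. NTN1 rose from 1346 to 7938 (2.56, SE 0.05, adjusted p = 4.76e-23), COL18A1 from 635 to 1598, COL4A5 from 253 to 501.5, COL7A1 by 1.72 and NTN4 by 0.24. SMOC1 had 2 counts over EV and 812 over OE, a ratio of 413 (exact 95% counting interval 114 to 3414).

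Of 15 receptors of laminin and collagen IV, 6 rose and 0 fell in MDA-MB-231 KD, with a median of 0.13 beside 0.00 over all genes. The called share of 40.0% was near the 37.7% of all genes, and with library size as the scaling 4 rose and 1 fell, with a median of 0.04. ITGB1, the beta subunit of most laminin and collagen integrins, rose by 0.29 (SE 0.03, adjusted p = 1.66e-08), the tetraspanin CD151 by 0.30 and dystroglycan, DAG1, by 0.38. In SUM159 KD, 6 rose and 7 fell (86.7% called, beside 60.1% of all genes), with a median of -0.02 beside 0.00, which turned to 0.04 with RLE size factors. The laminin-binding integrin subunits ITGB4 (2809 to 211, -3.73, SE 0.06, adjusted p = 1.05e-22), ITGA6 (3378 to 927, -1.87) and ITGA3 (5723 to 2445, -1.23) had the smallest p of the list there, all lower. In BT549 OE, 6 rose and 7 fell (86.7%, beside 70.6%), with a median of 0.31 beside 0.02. ITGA3 fell from 6977 to 220.0 (-4.99, SE 0.05, adjusted p = 8.86e-28) and ITGA6 from 1998 to 189.8 (-3.40), while BCAM, a receptor of LAMA5-containing laminins, rose from 79.2 to 4298 (5.76, SE 0.08, adjusted p = 2.48e-25). ITGB4 had 1212 counts over BT549 EV and 3 over OE, and ITGA11, a collagen integrin subunit, had 0 and 3230, at least 1095-fold higher in OE.

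Of 24 genes for the biosynthesis and secretion of collagens and laminins, more rose than fell in each comparison: 14 against 4 in MDA-MB-231 KD, 15 against 5 in SUM159 KD and 14 against 9 in BT549 OE, with medians of 0.15, 0.26 and 0.26 beside 0.00, 0.00 and 0.02 over all genes. The share called higher was 58.3%, 62.5% and 58.3%, beside 21.2%, 28.6% and 35.6% of all genes, and the share called lower 16.7%, 20.8% and 37.5%, beside 16.5%, 31.4% and 35%. With library size as the scaling, 10 rose and 5 fell in MDA-MB-231 KD, with a median of 0.06. The collagen prolyl 3-hydroxylase genes P3H3 (0.68, SE 0.05, adjusted p = 4.81e-11) and P3H2 (0.56, SE 0.04, adjusted p = 7.4e-11) rose in MDA-MB-231 KD. PXDN, the peroxidase that crosslinks collagen IV, rose there by 0.39 and in BT549 OE from 3620 to 9214 (1.35, SE 0.04, adjusted p = 1.13e-19). In SUM159 KD, the collagen galactosyltransferase COLGALT1 rose by 0.55 (SE 0.03, adjusted p = 1.43e-14), the prolyl 4-hydroxylase subunit P4HA3 from 119 to 365 and CRTAP, a partner of the 3-hydroxylase complex, by 0.41. SERPINH1, the collagen chaperone, rose by 1.27 (SE 0.03, adjusted p = 1.15e-19) and PPIB, a prolyl isomerase, by 0.91 in BT549 OE.

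Of the 17 basement membrane proteases and inhibitors tested, 6 rose and 2 fell in MDA-MB-231 KD, 11 rose and 5 fell in SUM159 KD, and 8 rose and 7 fell in BT549 OE, with medians of 0.19, 0.39 and 0.46 beside 0.00, 0.00 and 0.02 over all genes. The share called was 47.1%, 94.1% and 88.2%, beside 37.7%, 60.1% and 70.6% of all genes, and with library size as the scaling 5 rose and 3 fell in MDA-MB-231 KD. MMP14, a membrane-bound collagenase that activates MMP2, rose in both knockdown lines, by 0.43 in MDA-MB-231 (SE 0.04, adjusted p = 8.42e-09) and by 1.99 in SUM159 (SE 0.06, adjusted p = 2.59e-18). TIMP2, its inhibitor and partner, rose by 0.58 (SE 0.03, adjusted p = 6.6e-14) and 1.07 (SE 0.03, adjusted p = 3.05e-20). MMP15 rose by 0.66 in MDA-MB-231 KD and TIMP1 by 0.94 in SUM159 KD. In BT549 OE the lysosomal cathepsins CTSL (132500 to 16850, -2.98, SE 0.03) and CTSB (566100 to 298300, -0.92, SE 0.02) fell, at adjusted p-values of 6.92e-29 and 3.27e-21. TIMP3, a matrix-bound inhibitor, had 0 counts over BT549 EV and 3066 over OE, at least 1039-fold higher.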

How the data were processed

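Polysome-associated RNA of 12 libraries was sequenced. Per the study's methods, the authors pooled polysome fractions of sucrose gradients, used Trimmomatic for trimming, HISAT2 for alignment to GRCh38, SAMtools for duplicate removal, and RPKM and DESeq2 in Partek. The same tools and build stand in the submitters' processing notes. A kit for stranded total RNA with rRNA depletion is named in the methods, a poly(A) kit in the labels. The table deposited by the authors gives unnormalized expected counts for Ensembl transcripts, and the counting tool, annotation and strand setting are not given in the sources used here. Expected counts split a read that fits several transcripts.

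In 5.08% of rows the 8 MDA-MB-231 and SUM159 columns hold a missing mark, counted as 0. No transcript is at 0 in all 4 BT549 libraries, so transcripts with no count in BT549 are not analysed here. Gene sums in MDA-MB-231 and SUM159 may therefore lack isoforms. Transcripts were matched to GENCODE 44 (79.6% of rows, 99.25% to 99.41% of counts), summed per symbol and rounded. Genes passing edgeR's filterByExpr were scaled by TMM. The 6 group means were fitted together (edgeR 4.0.16, glmQLFit and glmQLFTest, R 4.3.3), which left 6 residual degrees of freedom. The test also borrows information on the spread across genes. The 95% intervals of log2 fold changes use a t distribution with 6 degrees of freedom and are wider than the test implies. An interval can therefore span 0 at an unadjusted p under 0.05. SE is the absolute log2 fold change over the root of F. Levels per kb divide summed normalized counts by the MANE Select length. A count of 0 allows up to 3 counts, counting intervals cover counting error only, and no fold is given where both groups had at most 3 counts per library. Counts of replicate libraries differed by more than sampling noise (chi-square per degree of freedom 2.08 to 3.21), and the median gene differed by 0.08 to 0.10 on the log2 scale between them.

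The members and gene lists were chosen with earlier results of these data known. Named genes were the members, TRMT112, the 3 listed genes with the smallest p per comparison, every other basement membrane component that passed (1 gene of that list is not reported here), and for each member the 2 genes with the highest r among genes averaging 50 or more counts; ITGA11 and ITGB4 in BT549 were added after their values were seen. Same-numbered replicates did not deviate together (r = 0.02, -0.02 and 0.00 in the 3 lines). The alternatives changed the scaling (RLE, library size), the test (DESeq2 1.42.0), the filter (none, or means of 50 counts and more), the model (a replicate block, each line alone), the transcripts summed (unmarked, main) or the size of a call (log2 fold change of at least 1), or left out 1 library. The other scalings of the gene lists and the ratio with each transcript divided by its own length were chosen after seeing the data. The test was also run on counts simulated with the spread fitted to these libraries. Such a run cannot show whether that spread is only technical. Promoters came from the RefSeq table, where all 9 members matched.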

Additional observations from a re-analysis of the deposited data

Results flagged for a closer look

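The effect of TRMT112 knockdown differed between MDA-MB-231 and SUM159 for 5 of the 9 members by the test of the difference itself (edgeR's quasi-likelihood test, Benjamini-Hochberg over 16538 genes), beside 50.9% of all genes. On the log2 scale, MDA-MB-231 minus SUM159, the difference was 1.18 for COL4A2 (adjusted p = 5.39e-08), 1.51 for LAMB3 (adjusted p = 2.13e-07), 0.71 for LAMC1 (adjusted p = 4.87e-09), 0.27 for LAMA5 (adjusted p = 0.0127) and -0.41 for HSPG2 (adjusted p = 9.42e-05). The lines differ in medium and in the size of the TRMT112 knockdown (-1.23 against -0.76), which cannot be told apart from the line itself. The 2 libraries of a group are too few to look for a library far from the others.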

How the results depend on the processing

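With 2 libraries per group the spread of a gene has 6 residual degrees of freedom, beside what the test borrows across genes. Genes near 3 counts (LAMA4 in SUM159, NID1 in MDA-MB-231) give no fold. Of 1396 values of single members, TRMT112 and the ratio of COL4A1 to COL4A2 under an alternative, 1328 kept their direction and side of the threshold, or for the ratio moved by less than 1 SD. Without 1 library in turn, the lone library left in its group is assumed to vary like the other groups.

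Counts of calls moved by over 1.5 times in 2 ways. With a log2 fold change of at least 1, members called were 1 in MDA-MB-231 KD, 3 in SUM159 KD, 2 for the difference of the knockdown effects and 3 between MDA-MB-231 EV and SUM159 EV, and genes called were 530, 2592, 5183 (BT549 OE), 2478 (difference), 6100 (MDA-MB-231 EV against SUM159 EV), 7514 (BT549 EV against MDA-MB-231 EV) and 7233 (BT549 EV against SUM159 EV). With main transcripts only, 2 members and 3233 genes were called in MDA-MB-231 KD, where LAMB1 and LAMB3 lost their calls, as did LAMB3 in the other lines, the difference of LAMA5, LAMA4 between MDA-MB-231 EV and SUM159 EV and LAMB1 between BT549 EV and MDA-MB-231 EV. DESeq2 lost COL4A1 in SUM159 and BT549 and LAMB3 in MDA-MB-231. Library size alone turned the share of calls that were higher in MDA-MB-231 KD from 56.2% to 36.7%, and in BT549 EV against MDA-MB-231 EV from 49.1% to 38.4%; it called LAMA5 in SUM159 KD (adjusted p = 0.0187). With no filter the difference of COL4A1 passed (adjusted p = 0.00551). The cause was not tested.

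Of the differences whose sign turned, 1 had been called. Under library size, they were COL4A2 (-0.064) and HSPG2 (-0.089) in MDA-MB-231 KD, the LAMB1 difference of effects (-0.038), COL4A1 (0.0064), LAMA5 (0.075) and HSPG2 (0.0028) between MDA-MB-231 EV and SUM159 EV, and the called LAMB1 between BT549 EV and MDA-MB-231 EV (-0.029). With RLE and with DESeq2, the LAMB1 difference (-0.018 and -0.017) and LAMA5 between the EV groups (0.0360 and 0.0361) turned. Requiring a mean of 50 counts turned HSPG2 in MDA-MB-231 KD (-0.013), the LAMB1 difference (-0.024) and LAMA5 (0.0070). With main transcripts, HSPG2 in MDA-MB-231 KD (-0.00082), NID1 in BT549 OE (0.16), and LAMA5 (0.044) and HSPG2 (0.12) between the EV groups turned, and with MDA-MB-231 fitted alone HSPG2 (-0.011). Without 1 library, COL4A1 in MDA-MB-231 KD ranged from -1.12 to 0.30, COL4A2 from -0.061 to 0.12 and HSPG2 from -0.0045 to 0.011, the differences of effects for COL4A1 from -0.21 to 1.20 and for LAMB1 from -0.044 to 0.084, and between MDA-MB-231 EV and SUM159 EV COL4A1 from -0.45 to 0.19 and LAMA5 from -0.11 to 0.054.

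Whether the replicate numbers pair the samples is not given in the labels. With the replicate number as a block, 4, 7 and 7 members and 6217, 9831 and 11581 genes were called in MDA-MB-231 KD, SUM159 KD and BT549 OE, and no member's call changed.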
